A study of Mus musculus with 10 samples.

Results

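The 10 genes described here, S100a8, S100a9, Ngp, Ly6g, Mmp8, Mmp9, Ltf, Camp, Cxcr2 and Retnlg, encode granule proteins, cytosolic proteins and surface markers of neutrophils. They were chosen by name as known neutrophil genes, and are 10 of the 38922 genes in the files. Expression was measured by RNA-seq of whole liver from wild-type male C57BL/6N mice aged 6 weeks. Of these, 5 received an intraperitoneal injection of saline and 5 received CD95-Ab, an antibody that activates the death receptor Fas (CD95), at 0.5 μg/g of body weight. All livers were taken 6 h after the injection, and each of the 10 mice gave its own library. CD95-Ab injection is a model of acute liver failure in which hepatocytes are driven into apoptosis, and the comparison asks how it changes liver gene expression.

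Neutrophils are short-lived white blood cells that are made in the bone marrow and enter injured tissue from the blood. Their proteins are made in waves during maturation: primary granule enzymes such as myeloperoxidase come first, then secondary granule proteins such as lactoferrin, then tertiary granule proteases such as MMP9, while the cytosolic pair S100A8 and S100A9 and the chemokine receptor CXCR2 belong to late and mature cells. In the injured liver, neutrophils are attracted by chemokines that bind CXCR2.

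Libraries held 25965699 to 62097636 counts in saline-injected mice (median 34227736) and 27480796 to 44962196 in mice injected with CD95-Ab (median 29180879). Values are given as CPM, counts scaled to a common total of 1000000 after TMM adjustment, and 3 counts correspond to 0.0483 to 0.116 CPM before that adjustment. Of the 13719 genes with enough counts to be tested, 25.4% were higher and 22.0% lower after CD95-Ab (FDR threshold 0.05). The 904 genes whose log2 fold change also reached 2 are called upregulated, 6.59% of those tested. In 2547 tested genes all CD95-Ab mice lay above all saline-injected mice (18.6%). The median log2 fold change of all tested genes was 0.01. In CD95-Ab replicate 3, the 4 hemoglobin genes held 3.0% of all counts, compared to 0.112% to 1.73% in the other CD95-Ab mice and to at most 0.0275% in saline-injected mice. That mouse also stood apart for several of the genes below.

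The neutrophil genes were higher after CD95-Ab. Of the 10 genes, 7 had enough counts to be tested, and all 7 were upregulated (edgeR's quasi-likelihood test with Benjamini-Hochberg adjustment), against a background of 6.59% of tested genes. Of these 7, S100a8, S100a9 and Cxcr2 had at least 10 counts in every saline-injected mouse. The other 4 did not, and their count follows in part from the filter on low counts, which they could pass through the CD95-Ab mice where they were high. Without the filter 9 of the 10 were upregulated. The number was 8 without any 1 saline-injected mouse and without CD95-Ab replicate 1, 3 or 4, and stayed at 7 without replicate 2 or 5. Without replicate 3 the added gene was Ltf, which then had enough counts. The median log2 fold change of the 7 was 6.02, with a range from 3.64 to 6.57. In 9 of the 10 genes every CD95-Ab mouse lay above every saline-injected mouse, and Ly6g was the exception. Among the tested genes this held for all 7, against 18.6% of all tested genes. The summed level of the 10 genes was 3.27 to 7.88 CPM in saline-injected mice and 101 to 451 CPM after CD95-Ab. In whole liver RNA, more neutrophils, more RNA per neutrophil and expression of these genes by other cells cannot be told apart.

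**Figure D1:**
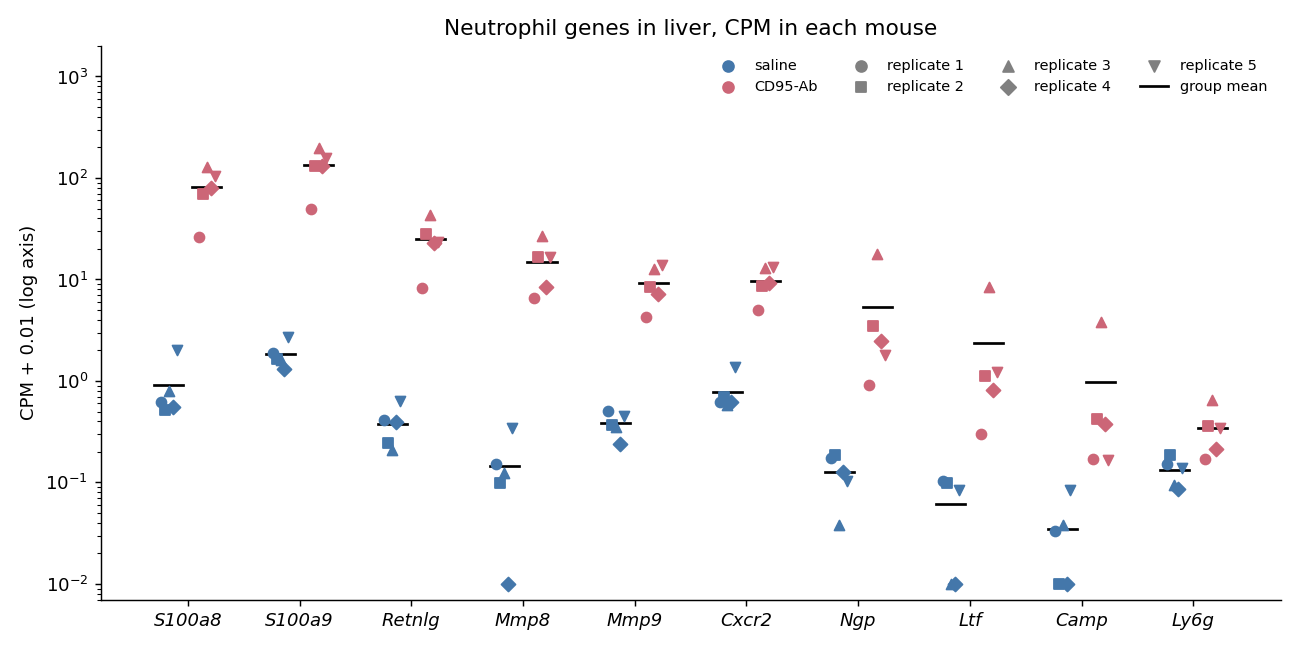
CPM of the 10 neutrophil genes in each of the 5 saline-injected and 5 CD95-Ab mice (log axis with 0.01 CPM added, marker shape = replicate number, line = group mean). Groups were separate for all but Ly6g, and CD95-Ab replicate 3 was far above the other CD95-Ab mice for Ngp, Ltf and Camp.

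The most abundant of these transcripts encode S100A8 and S100A9, small calcium-binding proteins that together form calprotectin, which makes up much of the neutrophil cytosol, binds zinc and manganese, and acts on the receptor TLR4 once released. Both genes lie on chromosome 3, S100a8 at chr3:90668978-90670035 on the plus strand and S100a9 at chr3:90692632-90695721 on the minus strand (GRCm38). The bases upstream of the transcription start of both genes are shown because the pair changed together (RefSeq, GRCm38.p6, read 5′ to 3′ on the gene's strand). Capitals mark TTGCNNAA, the core of the sequence bound by C/EBP factors, searched on both strands, of which the S100a8 window holds none. The windows run from 250 bases before to 50 after the start, and were cut before any annotated exon for printing.
S100a8, chr3:90668821-90668977, plus strand: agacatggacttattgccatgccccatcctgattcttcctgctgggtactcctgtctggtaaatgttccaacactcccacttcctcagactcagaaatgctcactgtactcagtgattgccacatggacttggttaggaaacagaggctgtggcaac
S100a9, chr3:90695722-90695971, minus strand: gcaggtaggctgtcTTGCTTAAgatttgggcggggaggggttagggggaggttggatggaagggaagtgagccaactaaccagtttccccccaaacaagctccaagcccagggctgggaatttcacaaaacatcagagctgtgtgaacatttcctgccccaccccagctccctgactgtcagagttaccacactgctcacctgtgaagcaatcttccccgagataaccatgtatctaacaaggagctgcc

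S100a8 measured 0.612, 0.504, 0.789, 0.539 and 2.02 CPM in saline replicates 1 to 5, and 26.1, 68.9, 127, 79.1 and 105 CPM in CD95-Ab replicates 1 to 5. All CD95-Ab mice were above all saline-injected mice, of which replicate 5 was the highest. The gene rose by a log2 fold change of 6.44 (SE 0.53, edgeR's quasi-likelihood test, adjusted p = 3.19e-06). S100a9 measured 1.86, 1.63, 1.61, 1.31 and 2.73 CPM in saline replicates 1 to 5, and 49.3, 130, 197, 130 and 158 CPM in CD95-Ab replicates 1 to 5. The lowest CD95-Ab mouse, replicate 1, was well above the highest saline-injected mouse, and replicate 3 was the highest. Its log2 fold change was 6.16 (SE 0.38, edgeR's quasi-likelihood test, adjusted p = 6.42e-07).

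As the subunits form a pair, the ratio of S100a8 to S100a9 was compared within each mouse. Their summed counts gave 52.2% as many S100a8 as S100a9 counts in saline-injected mice and 61.6% after CD95-Ab. The mean log2 ratio, with 0.1 CPM added to each gene, was -1.09 ± 0.45 in saline and -0.75 ± 0.15 after CD95-Ab (SD, n = 5), a difference of 0.34 (exact two-sided permutation test, p = 0.135, the smallest p possible being 0.00794). No change of the ratio was detected with all mice, but without saline replicate 5 the difference was 0.51 (exact permutation test, p = 0.00794). Per length, as FPKM, S100a9 was above S100a8 in 5 of 5 CD95-Ab mice, with means of 276 ± 103 and 229 ± 101 FPKM (SD, n = 5).

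Retnlg encodes resistin-like gamma, a secreted protein of myeloid cells, and lies at chr16:48872621-48874496. It measured 0.400, 0.237, 0.197, 0.385 and 0.630 CPM in saline replicates 1 to 5, and 8.25, 28.0, 43.6, 22.7 and 23.2 CPM in CD95-Ab replicates 1 to 5. As for the S100 genes, CD95-Ab replicate 1 was the lowest and replicate 3 the highest of its group, and the groups did not overlap. The log2 fold change was 6.02 (SE 0.47, edgeR's quasi-likelihood test, adjusted p = 2.17e-06).

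The matrix metalloproteinases MMP8, the neutrophil collagenase of secondary granules, and MMP9, the gelatinase of tertiary granules, cut collagens and other matrix proteins. Mmp8 lies at chr9:7558456-7568485 and Mmp9 at chr2:164940780-164955850. Mmp8 is shown with its C/EBP core match, which lies 19 bases before the RefSeq start.
Mmp8, chr9:7558179-7558428, plus strand: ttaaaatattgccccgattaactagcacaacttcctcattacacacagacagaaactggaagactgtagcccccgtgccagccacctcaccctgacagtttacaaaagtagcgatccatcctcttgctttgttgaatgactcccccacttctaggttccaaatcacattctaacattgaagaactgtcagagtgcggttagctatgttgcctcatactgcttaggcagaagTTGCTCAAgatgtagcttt

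Mmp8 measured 0.141, 0.0889, 0.113, 0 and 0.334 CPM in saline replicates 1 to 5, and 6.58, 16.5, 27.0, 8.36 and 16.5 CPM in CD95-Ab replicates 1 to 5. The groups did not overlap. Its log2 fold change was 6.57 (SE 0.57, edgeR's quasi-likelihood test, adjusted p = 4.08e-06), and without saline replicate 5 it was 7.26. Mmp9 measured 0.494, 0.356, 0.338, 0.231 and 0.445 CPM in saline replicates 1 to 5, and 4.27, 8.38, 12.7, 7.19 and 14 CPM in CD95-Ab replicates 1 to 5. Here replicate 5 and not replicate 3 was the highest CD95-Ab mouse. The log2 fold change was 4.60 (SE 0.36, edgeR's quasi-likelihood test, adjusted p = 2.11e-06).

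Mmp8 rose by a larger factor than Mmp9. Summed over the mice of a group, Mmp8 had 41.3% as many counts as Mmp9 in saline and 154% after CD95-Ab. The mean log2 ratio of Mmp8 to Mmp9 went from -1.13 ± 0.51 to 0.62 ± 0.40 (SD, n = 5), a difference of 1.76 (exact two-sided permutation test, p = 0.00794, adjusted p over the 4 pairs compared = 0.0317). It was between 1.61 and 1.96 with each mouse left out in turn.

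CXCR2, encoded at chr1:74153989-74161246, is the receptor through which neutrophils follow chemokines of the CXCL family. Cxcr2 measured 0.612, 0.682, 0.563, 0.616 and 1.35 CPM in saline replicates 1 to 5, and 4.94, 8.69, 12.9, 9.12 and 13.1 CPM in CD95-Ab replicates 1 to 5. Its groups did not overlap, although its increase was the smallest of the 7 tested genes. The log2 fold change was 3.64 (SE 0.33, edgeR's quasi-likelihood test, adjusted p = 6.01e-06).

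Ngp, Ltf and Camp encode secondary granule proteins, and their genes lie on chromosome 9 at chr9:110419747-110423012, chr9:111019271-111042767 and chr9:109847379-109849617. NGP, neutrophilic granule protein, is related to cystatins and cathelicidins, lactoferrin (LTF) binds iron, and CAMP is the precursor of the antimicrobial peptide cathelicidin. The sequences upstream of Ngp and Ltf are shown because both genes were set apart by the same mouse. A second C/EBP core match of Ngp lies outside the bases printed.
Ngp, chr9:110419558-110419746, plus strand: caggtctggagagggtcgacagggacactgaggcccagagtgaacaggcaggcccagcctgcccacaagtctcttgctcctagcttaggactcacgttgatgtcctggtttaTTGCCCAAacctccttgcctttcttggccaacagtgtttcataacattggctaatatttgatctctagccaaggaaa
Ltf, chr9:111019042-111019270, plus strand: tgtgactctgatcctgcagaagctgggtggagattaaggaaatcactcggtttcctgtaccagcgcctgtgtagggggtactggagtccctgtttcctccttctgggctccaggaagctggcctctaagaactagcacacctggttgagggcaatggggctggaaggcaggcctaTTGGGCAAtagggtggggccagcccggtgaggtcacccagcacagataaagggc

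Ngp measured 0.165, 0.178, 0.0282, 0.115 and 0.0927 CPM in saline replicates 1 to 5, and 0.899, 3.50, 17.8, 2.46 and 1.79 CPM in CD95-Ab replicates 1 to 5. CD95-Ab replicate 3 was 8.38 times the median of the other 4 CD95-Ab mice, while the groups remained separate. The log2 fold change was 5.47 (SE 0.90, edgeR's quasi-likelihood test, adjusted p = 0.000425), and without that mouse it was 4.18.

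Ltf and Camp had too few counts for the fit across genes. Ltf measured 0.0941, 0.0889, 0, 0 and 0.0742 CPM in saline replicates 1 to 5, and 0.289, 1.11, 8.48, 0.807 and 1.22 CPM in CD95-Ab replicates 1 to 5. Camp had 1, 0, 1, 0 and 4 counts in saline replicates 1 to 5, and 5, 13, 95, 9 and 7 counts in CD95-Ab replicates 1 to 5. Both were higher in every CD95-Ab mouse on the CPM scale (exact two-sided permutation test of log2(CPM + 0.1), p = 0.00794 for each, the smallest p possible with 5 mice against 5). CD95-Ab replicate 3 was 8.82 times the median of the other 4 mice for Ltf and 14.4 times for Camp. Without it, the ratio of the group means fell from 46.3 to 16.7 for Ltf and from 38.7 to 10.9 for Camp.

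The spread among CD95-Ab mice separated these 3 genes from the other 7. Their coefficients of variation were 133% for Ngp, 144% for Ltf and 161% for Camp, against 34.7% to 55.5% for the other 7 genes. Replicate 3 was 1.44 to 2.39 times the median of the others for those 7. Relative to S100a9 counts, Ngp counts were 1.82%, 2.70%, 9.05%, 1.89% and 1.14% in CD95-Ab replicates 1 to 5. Replicate 3 thus had more Ngp per S100a9 than any other CD95-Ab mouse.

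**Figure D2:**
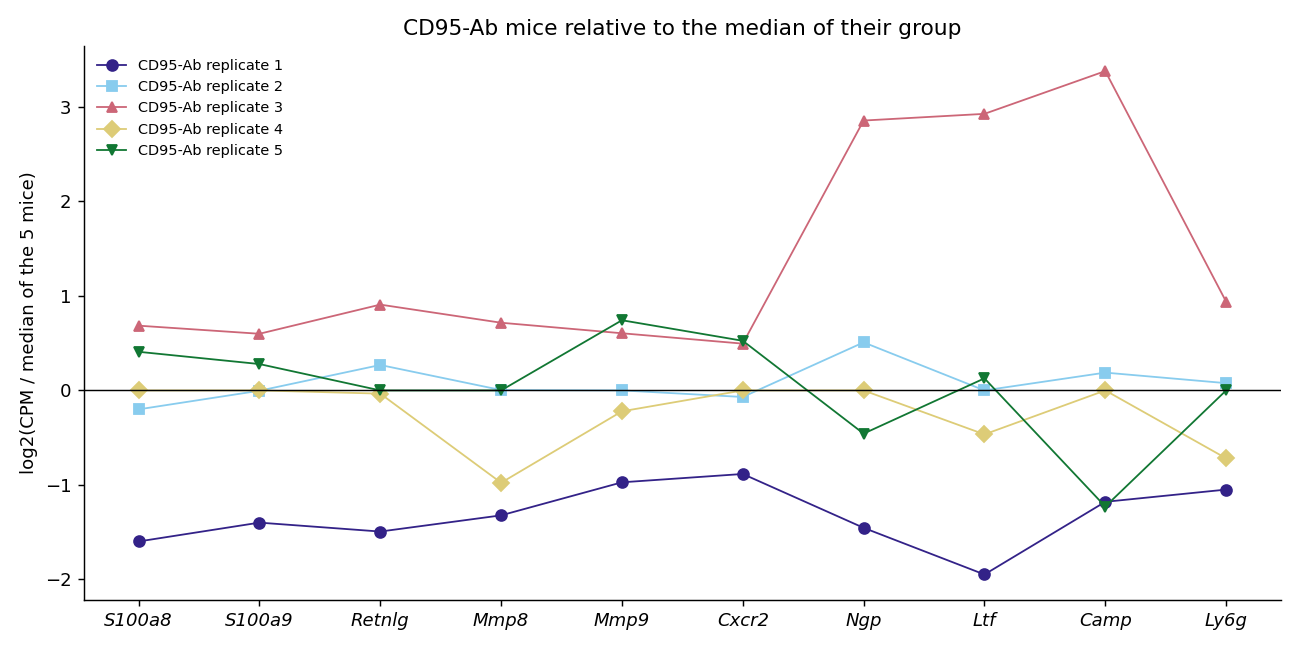
Log2 ratio of the CPM of each of the 10 neutrophil genes in each of the 5 CD95-Ab mice to the median of those mice, with 1 line per mouse. Replicate 3 was farthest above the others for Ngp, Ltf and Camp, and replicate 1 was the lowest for 9 of 10 genes.

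Across the 4 pairs compared, the log2 ratio of Ngp to S100a9 went from -3.17 to -5.26, a difference of -2.09 (exact permutation test, p = 0.0238, adjusted p over the 4 pairs = 0.0423). This difference depends on the 0.1 CPM added to low values: without it, the difference was -1.15 (exact permutation test, p = 0.151). For Camp over Ltf the difference was -1.02 (exact permutation test, p = 0.0317, adjusted p = 0.0423), but both genes had under 3 counts in 2 saline-injected mice, so the ratio in those mice rests on the added value. The p of this pair was between 0.0556 and 0.0635 (exact permutation test) without saline replicate 3, 4 or 5 or CD95-Ab replicate 5.

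Ly6g, the gene of the surface antigen by which mouse neutrophils are usually sorted, lies at chr15:75155240-75159126 and gave the weakest result. It had 6, 6, 3, 2 and 7 counts in saline replicates 1 to 5, and 5, 11, 16, 5 and 15 counts in CD95-Ab replicates 1 to 5. On the CPM scale its mean was 0.122 ± 0.042 in saline and 0.336 ± 0.187 after CD95-Ab (SD, n = 5), and the groups overlapped in that 4 of 5 CD95-Ab mice lay above all saline-injected mice. The difference was 0.90 on the log2(CPM + 0.1) scale (exact two-sided permutation test, p = 0.0159). Ly6g belongs to a family of close paralogs among which RSEM may divide reads, so its level is uncertain.

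In order of FPKM, which allows levels to be compared between genes, the CD95-Ab means were 276 for S100a9, 229 for S100a8, 43.1 for Retnlg, 5.98 for Mmp8, 4.19 for Ngp, 3.51 for Mmp9, 3.13 for Cxcr2, 1.63 for Camp, 1.15 for Ly6g and 0.81 for Ltf. Each of the first 3 was above the next in 5 of 5 CD95-Ab mice. The order of the later neighbours was not firm: Ngp was above Mmp9 in 2 of 5 mice and Camp above Ly6g in 1 of 5.

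In the 9 of the 10 genes with a promoter entry in RefSeq (Mmp9 had none), the C/EBP core TTGCNNAA occurred in 6, against 10.8% of the 32851 promoter entries. GAGGAAG, a core of the sequence bound by PU.1 and searched on both strands, occurred in 3 of 9, against 13.6% of entries. A match is a description of these windows and says nothing about binding in the liver.

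Other neutrophil genes were examined by role. Primary granule genes, the earliest in maturation, showed no change past the test with all mice: Prtn3, the only one of 4 with enough counts, had a log2 fold change of 0.55 (SE 0.83, edgeR's quasi-likelihood test, adjusted p = 0.612). Without saline replicate 2, the highest of its group, the value was 2.20 (edgeR's quasi-likelihood test, adjusted p = 0.0116). Exons of Prtn3 overlap those of Plppr3 on the opposite strand, so Prtn3 counts may include reads of that gene, which was not tested. Mpo had 0, 1, 0, 1 and 12 counts in saline replicates 1 to 5, and 0, 2, 38, 3 and 9 counts in CD95-Ab replicates 1 to 5 (exact permutation test, p = 0.238). Elane (p = 0.214, exact permutation test) and Ctsg (p = 0.167, exact permutation test) were likewise at few counts, and no difference was detectable at this depth. CD95-Ab replicate 3 was the highest mouse for Mpo and Elane, but the lowest CD95-Ab mouse for Prtn3.

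Of 9 other granule and antimicrobial genes, 6 were tested and all 6 were upregulated (background 6.59%), with a median log2 fold change of 5.32 against 0.01 for all tested genes. Only Lcn2 and Lyz2 of these had at least 10 counts in every saline-injected mouse, and the other 4 could pass the filter through the CD95-Ab mice. Lcn2 went from a mean of 29.6 to 1771 CPM, above the mean CPM of S100a9 in both groups, without scaling for transcript length. It measured 2047, 2340, 2375, 1166 and 928 CPM in CD95-Ab replicates 1 to 5, so its lowest mouse was replicate 5 and not replicate 1. The cells that made it were not tested. The largest increases were those of Cd177, a surface and granule protein of neutrophils, at 7.38 (SE 0.71, edgeR's quasi-likelihood test, adjusted p = 8.85e-06), and Chil3, a chitinase-like protein, at 6.32. The size for Cd177 rests on 3 counts in the saline group, and was 8.15 without saline replicate 5, 6.88 without CD95-Ab replicate 3 and 5.48 with a prior count of 2. The smallest was that of Lyz2, a lysozyme that macrophages also make, at 2.70, and next Pglyrp1, which binds peptidoglycan, at 4.61. Of 14 surface receptor genes, 13 were tested and all 13 were upregulated (background 6.59%), with a median of 4.96. The same limit holds here, as 6 of the 13 had at least 10 counts in every saline-injected mouse. Mrgpra2b rose most (7.64, or 5.39 with a prior count of 2, on 2 counts in the saline group), followed by Clec4e, a receptor for mycobacterial glycolipids and dead cells (7.60, or 8.19 without saline replicate 5). Fpr1, a formyl peptide receptor, rose least (2.11), and was below a log2 fold change of 2 without saline replicate 3 (1.89), 4 (1.94) or 5, and Itgb2, a shared integrin chain of leukocytes, was next (2.91). Subunit genes of the phagocyte NADPH oxidase rose as well, with log2 fold changes of 2.16 for Cybb, 1.85 for Cyba, 2.43 for Ncf1 and 2.93 for Ncf4. The genes of the oxidase are also used by macrophages.

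Of 12 further genes enriched in neutrophils, 8 were tested, 7 rose and 1 fell (background 25.4% higher and 22.0% lower). Slfn4 (6.15) and Asprv1 (5.86) rose most, while G0s2, which inhibits the lipase ATGL and is also abundant in hepatocytes, fell by 2.55 on the log2 scale (SE 0.65, edgeR's quasi-likelihood test, adjusted p = 0.00662). Without saline replicate 4, the highest of its group, G0s2 was at -1.85. Of the transcription factors of granulocytes, Cebpb (1.27), Cebpd (2.27) and Spi1, which encodes PU.1 (2.48), rose. Cebpe, which drives secondary granule genes during maturation, fell by 1.49 on the log2 scale, from 4.14 ± 0.57 to 1.47 ± 0.50 CPM (SD, n = 5; SE 0.23, edgeR's quasi-likelihood test, adjusted p = 0.000306). In saline-injected mice the mean CPM of Cebpe was above those of S100a9 (1.83 CPM) and Ngp (0.116 CPM), and Cebpb was at 71.0 CPM. CPM is not scaled for transcript length, so this does not rank the levels of these genes. Which liver cells express these factors was not tested. Gfi1 was at few counts and was higher after CD95-Ab (exact permutation test, p = 0.00794).

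The ligands of CXCR2 rose together with the receptor. Cxcl1, a chemokine made by hepatocytes and other liver cells, went from 31.8 to 300 CPM with a log2 fold change of 3.24 (edgeR's quasi-likelihood test, adjusted p = 0.000127). Cxcl2 rose by 8.55, Cxcl5 by 4.64 and Ppbp, which platelets store, by 3.37. Ppbp was at 4.54 without saline replicate 5, and Cxcl5, on 4 counts in the saline group, at 3.08 with a prior count of 2. Cxcl3 was at 0 in the saline group and at least 64.4-fold higher after CD95-Ab. Csf3, which encodes the granulocyte growth factor G-CSF, was also at 0 in every saline-injected mouse, against 3 to 138 counts after CD95-Ab, at least 88.8-fold higher. Both limits use 3 counts over the saline group as the floor. Csf3 was highest in CD95-Ab replicate 3, and without that mouse it was at least 39.1-fold higher and Cxcl3 at least 49.7-fold.

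**Figure D3:**
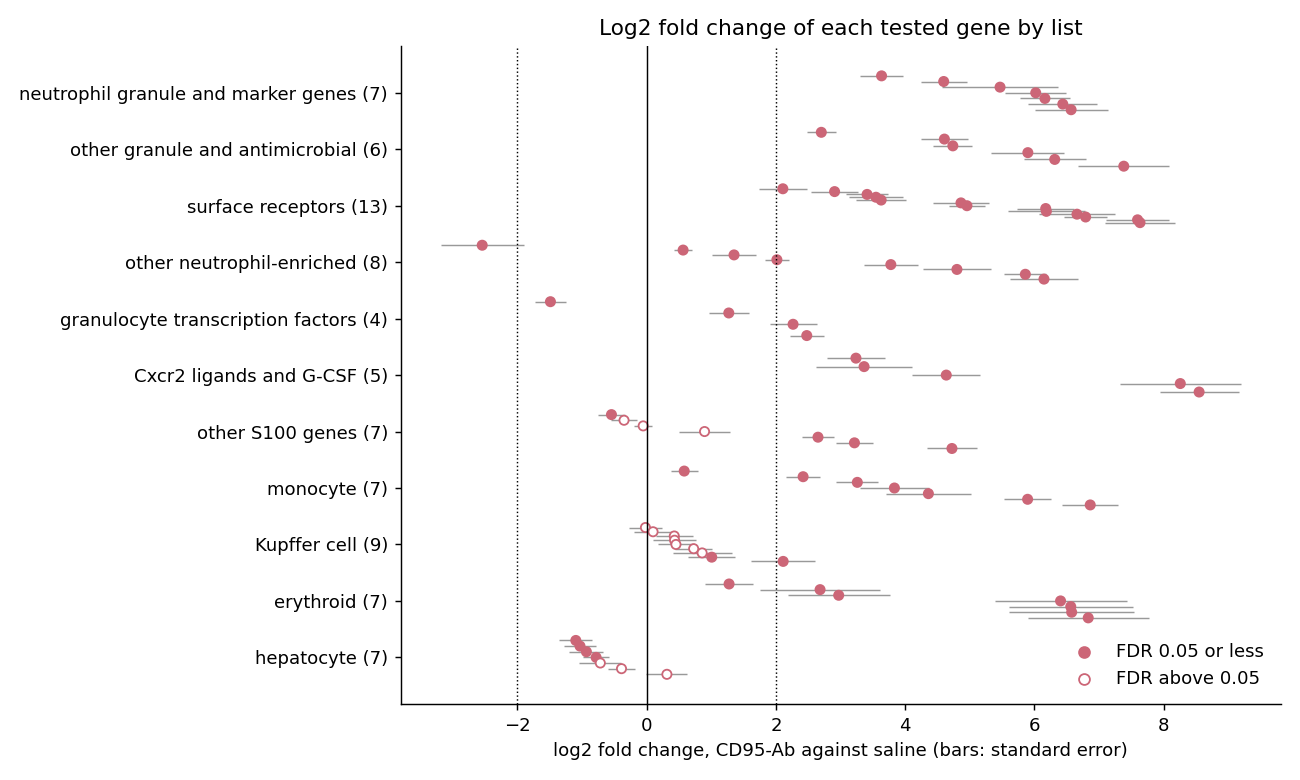
Log2 fold change (CD95-Ab against saline) of each tested gene in the lists of neutrophil genes and of other cell markers, with 1 point per gene, bars for the standard error, filled points for an FDR of 0.05 or less and dotted lines at -2 and 2. The 7 tested neutrophil genes described above lay at 3.64 to 6.57, 7 of 9 Kupffer cell markers had an FDR above 0.05, and hepatocyte markers were mostly below 0.

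Of 12 S100 genes outside the calprotectin pair, 7 were tested, 3 rose and 1 fell (background 25.4% higher and 22.0% lower). S100a4 (4.73) and S100a6 (3.22) rose, S100a13 fell by 0.55 (edgeR's quasi-likelihood test, adjusted p = 0.046, a call lost when any of 7 single mice was left out) and S100a1 was at -0.35 (adjusted p = 0.182). Of the receptors that bind calprotectin, Tlr4 (1.87) and Cd36 (1.47) rose, and Ager was not tested in the fit across genes (exact permutation test, p = 0.857).

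The tested genes with profiles most like the neutrophil genes, by the smallest root mean square difference of centred log2 CPM over the 10 mice, were Cd177 (0.233), Chil1 (0.377), Rnu3b4 and Rnu3b2 (0.391 each), Ccr1 (0.434), Asprv1 (0.508), Mrgpra2b (0.513) and Slc16a3 (0.528), against a median of 2.85 over tested genes. Rnu3b4 and Rnu3b2 had the same values in all mice and are near-identical copies of a small nucleolar RNA gene, so they count as 1. Of these 8 genes, 5 were also among the 8 closest with a prior count of 0.5 in place of 2. The other 3, Cd177, Mrgpra2b and Asprv1, were those from the lists of neutrophil genes, and ranked 25, 69 and 16. Among the members, Retnlg was closest to the median profile (0.213) and Cxcr2 farthest from it (1.03). That profile is the median of the tested members themselves, with both genes included. Retnlg also had their median log2 fold change (6.02) and Cxcr2 their smallest (3.64), so this order partly repeats the fold changes.

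Markers of other cells moved as well, and their part in the results above was not tested. The counts below stand against 25.4% of all tested genes higher and 22.0% lower. All 7 monocyte markers rose, with a median log2 fold change of 3.83. The monocyte sum overlapped between groups, at 979 to 1345 CPM in saline and 991 to 2095 CPM after CD95-Ab. Fn1, which hepatocytes express strongly, made up most of it, and the sum without Fn1, chosen after its values were seen, was 5.83 to 17.6 CPM in saline-injected mice and 81.0 to 137 CPM after CD95-Ab. Of 9 Kupffer cell markers, 2 rose, which is not above the share of all tested genes. Of 6 tested T and NK cell markers, 5 rose, with sums of 1.04 to 3.65 CPM in saline and 4.78 to 6.87 CPM after CD95-Ab. Of 4 B cell markers, 3 rose, with sums of 0.648 to 3.68 and 2.28 to 13.6 CPM. All 7 erythroid markers rose, with summed levels of 135 to 325 CPM in saline and 1064 to 34013 CPM after CD95-Ab, and all 4 tested platelet markers rose. Eosinophil, basophil and mast cell markers had too few counts for the fit, with Epx at 0 in all 10 mice. Their sums were near 0 but did not overlap, at 0 to 0.130 CPM in saline and 0.191 to 0.753 CPM after CD95-Ab. Hepatocyte markers fell in 4 of 7.

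**Figure D4:**
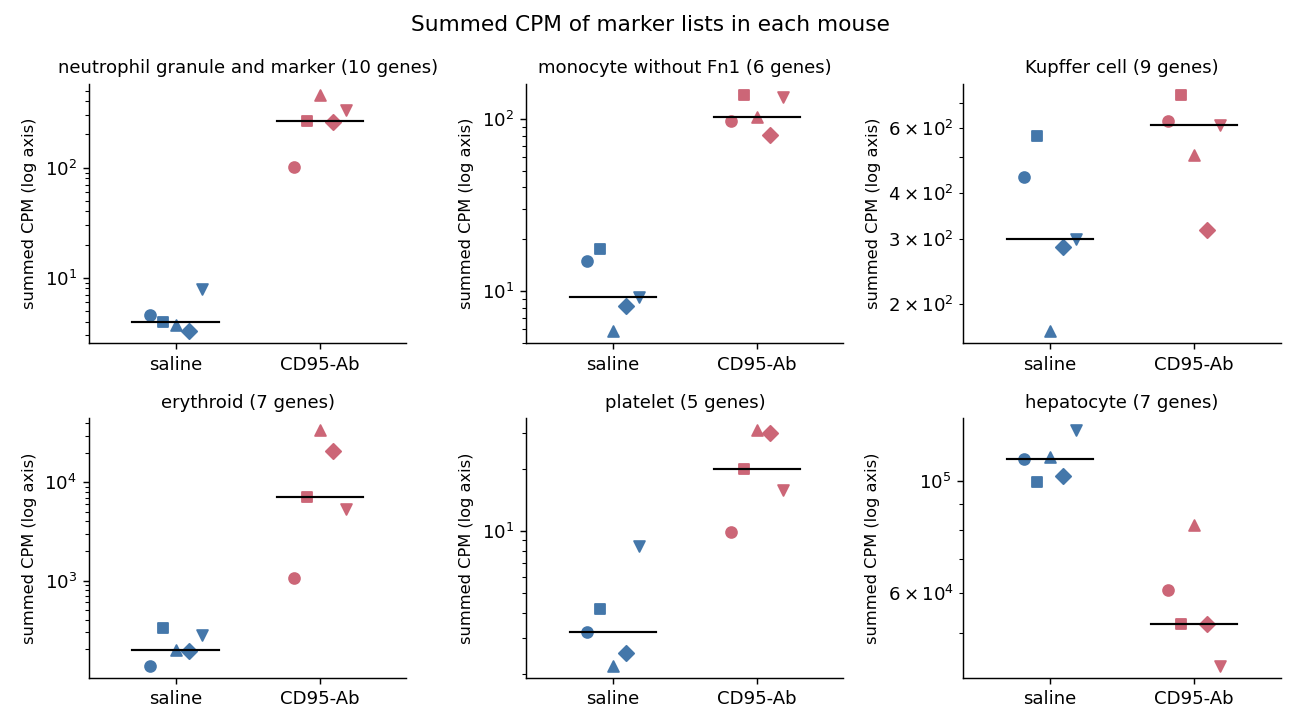
Summed CPM of marker genes of 6 cell types in each mouse (log axes, marker shape = replicate, horizontal line = group median). CD95-Ab mice had higher sums of neutrophil, monocyte (without Fn1), erythroid and platelet genes than saline-injected mice, overlapped them for Kupffer cell genes, and had lower sums of hepatocyte genes.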

How the data were processed

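The authors assigned reads to genes with RSEM 1.2.19, per the submitters' processing notes, and deposited 2 values per gene and mouse. The first is an expected count, deposited as a whole number without normalization. The second is FPKM, which the authors deposited scaled for length and library total, and which served here to order levels between genes and in an alternative fit. The mouse annotation release and genome build are not given in the sources used here, so positions and symbols came from GENCODE mouse release M21 (GRCm38), which held 37606 of the 38922 identifiers. RSEM shares reads that fit several genes, so values of close paralogs depend on that step. Exons of Prtn3, Mpo, Ncf1, Gfi1, Cebpd, Cebpb and S100a4 overlap those of another annotated gene, whose reads their counts may include. Saline and CD95-Ab mice were assigned from the labels, with 5 mice per group.

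Low counts were removed with filterByExpr (minimum count 10), totals were scaled with TMM and groups were compared with edgeR's quasi-likelihood test (edgeR 4.0.16, R 4.3.3), with no term but group, Benjamini-Hochberg adjustment, an FDR threshold of 0.05 and a log2 fold change threshold of 2 for upregulated genes. Members removed by the filter, and ratios between members, were compared with exact two-sided permutation tests on log2(CPM + 0.1). These went through all splits of the mice (Python 3.11.15, numpy 2.4.6), and p-values of the pairs were adjusted in scipy 1.17.1. The SE given with edgeR's test, and drawn as bars in the figure of log2 fold changes, is not an output of that test. It was computed as the absolute log2 fold change divided by the square root of the F statistic. Profiles used a prior count of 2. Named genes were all members, every gene of a list of at most 6 genes, the 2 largest and 2 smallest log2 fold changes of longer lists, and the 8 closest profiles. The members, lists and tests were chosen with earlier results of these data known. In simulated counts, changes of log2 fold change 2 were recovered in 89.8% and of 4 in 99.0% of genes. The p-values measure the spread between these mice. Alternatives were DESeq2 1.42.0, limma 3.58.1 on FPKM, other filters, factors, thresholds and pseudocounts, a replicate block, and fits without each single mouse. Leaving hemoglobin genes out of totals, and ratios without a pseudocount, were added after seeing the data, as were the monocyte sum without Fn1, the limits of Cxcl3 and Csf3 without CD95-Ab replicate 3, and the counts of list genes with at least 10 counts in every saline mouse. Not every gene of the lists is reported here.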

Additional observations from a re-analysis of the deposited data

Results flagged for a closer look

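Of 108 groups of 5 values looked at, 19 held a mouse far from the other 4 of its group, by the gap to the nearest mouse over the range of the group. Chance flags about 1 in 20 groups of independent, normally distributed values. These values are untransformed CPM, some from few counts, and the groups share the same mice, so that rate may not hold here. CD95-Ab replicate 3 was the mouse set apart for Ngp (17.8 CPM), Ltf (8.48 CPM), Camp (3.78 CPM), Mpo (1.51 CPM), Elane (0.796 CPM), Cd177 (6.93 CPM) and Csf3 (5.49 CPM). All were higher in that mouse than in the other CD95-Ab mice. Saline replicate 5 was set apart for S100a8 (2.02 CPM), Cxcr2 (1.35 CPM), Mpo (0.222 CPM), S100a13 (22.3 CPM) and S100a1 (97.2 CPM), each the highest of the saline group. Saline replicate 2 was the highest for Prtn3 (7.03 CPM) and Chil3 (0.445 CPM), and CD95-Ab replicate 5 for Prtn3 (5.71 CPM). CD95-Ab replicate 4 was the highest for G0s2 (21.1 CPM) and CD95-Ab replicate 2 for Slfn4 (230 CPM). Saline replicate 3 was the lowest for Asprv1 (0.0282 CPM), and saline replicate 4 the lowest for S100a4 (0.115 CPM).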

How the results depend on the processing

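The direction of all 10 neutrophil genes held under the alternatives run. The number of upregulated genes was 904, and became 1374 without a filter on low counts, 534 with at least 10 counts in every mouse and 2144 at a log2 fold change of 1. With at least 10 counts in every mouse, 3 neutrophil genes were left to test, so 3 were called. Leaving out each mouse in turn gave 5616 to 6977 genes changed, 853 to 1017 upregulated, 7 to 8 neutrophil genes called, and ratio differences of 0.24 to 0.51 for S100a8 over S100a9, -2.54 to -1.81 for Ngp over S100a9 and -1.19 to -0.74 for Camp over Ltf. With 1 CPM added, S100a8 over S100a9 changed sign to -0.13. Without a pseudocount, Ngp over S100a9 was -1.15. The cause was not tested. Same-numbered mice had a mean correlation of 0.037 (other pairs -0.006), with single values from -0.274 to 0.257. So few pairs cannot exclude that replicate numbers pair the mice, and the labels do not say whether they do. With the replicate block, 5987 genes were changed, 924 genes were upregulated and 7 neutrophil genes called. Of the genes named among lists, S100a13 lost its call at the FDR threshold in 9 alternatives, S100a1 gained one in 3 and Prtn3 in 1. Fpr1 fell below a log2 fold change of 2 in 4 alternatives and Cybb in 1 (1.97 without saline replicate 3). On log2(FPKM + 0.1) the log2 fold changes of genes with few saline counts were smaller, at 3.73 for Ngp, 5.18 for Mmp8, 3.76 for Mmp9, 3.39 for Cd177 and 2.00 for Cxcl5. With the block Ngp was at 4.72.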
